A study of Homo sapiens with 4 samples.

Results

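Transforming growth factor beta (TGF-beta) and bone morphogenetic protein (BMP) genes were read in the transcriptome of OVCAR5 cells in which the transcription factor gene FOXK2 was targeted. The genes described are 40 ligands, latent binding proteins, receptors, SMADs, negative regulators and targets, taken from a list of symbols and found by symbol among the 56655 symbols of the count tables. All 40 were present, and 38 of them passed the filter on low counts. OVCAR5 is an established human ovarian cancer cell line, and the labels call it high grade serous. Every group carried a stably integrated lentiviral short hairpin RNA, an RNA that cells process into a small guide that lowers a matching transcript. The shCtrl group (n = 2 libraries) had a control hairpin and the shFOXK2 group (n = 2 libraries) a hairpin against FOXK2, and both were grown in RPMI medium with serum and the labels name no added ligand or inhibitor. The study's figure legends name 1 of its FOXK2 hairpins for the sequenced cells, and whether the cells were a pool or a clone is not given in the sources used here. The series design calls the libraries biological duplicates, so the p-values measure the spread between a pair of libraries of 1 cell line.

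The libraries held between 14284005 and 21950873 counts, and levels are given in CPM, a scaling of counts to one library size, on which 3 counts came to 0.134 to 0.210. FOXK2 itself differed by −0.36 on the log2 scale (SE 0.25, edgeR adjusted p = 0.257), a difference that did not pass the threshold. The groups were kept as the sample titles name them. The paper reports lower FOXK2 in OVCAR5 cells with its FOXK2 hairpins, by qRT-PCR and Western blot rather than by these counts. All 5 epithelial markers checked were detected, with summed levels of 3593 to 4785 CPM in shCtrl and 3436 to 4645 CPM in shFOXK2, although CDH1 counts were 459 and 260 against 13 and 24. Of the Müllerian and ovarian markers, PAX8 held 351 and 335 counts in the control libraries and 156 and 162 in the others, MUC16 held 397 and 145 in shCtrl and 0 and 8 in shFOXK2, and WT1 and SOX17 had at most 3 counts in any library. MSLN went the other way, with 75 and 52 counts in shCtrl against 112 and 116 (log2 fold change 1.10, edgeR adjusted p = 0.0151). The 5 genes of that list summed to between 33.2 and 36.98 CPM in shCtrl and between 15.9 and 18.8 CPM in shFOXK2. Fibroblast markers summed to between 13.6 and 20.5 CPM, nearly all of it COL1A1 and, in shCtrl, PDGFRB, with COL1A2 and COL3A1 at 2 counts or fewer and DCN at 3 or fewer. Leukocyte markers stayed at or below 0.628 CPM. Endothelial markers summed to 7.72 and 10.6 CPM in shCtrl and 0.633 and 1.98 CPM in shFOXK2. The part of these marker shifts in the values below was not tested, and in bulk RNA fewer cells of a type and less RNA per cell cannot be told apart.

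In this pathway a dimeric ligand, kept latent outside the cell by binding proteins or held by antagonists, joins type II and type I serine/threonine kinase receptors, and the type I kinase phosphorylates receptor SMADs. SMAD2 and SMAD3 carry the signal of TGF-beta and activin, SMAD1 and SMAD5 that of BMPs, and both kinds enter the nucleus with SMAD4. Signalling induces its own inhibitors, among them SMAD6, SMAD7 and SKIL, and in epithelial cells TGF-beta is known both for growth arrest and for turning on mesenchymal and matrix genes.

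Promoter windows of 300 bases around an annotated start, most of each window upstream, were found for 36 of the 40 genes (67 windows, RefSeq, GRCh38.p14). They were searched on both strands for the FOXK2-type forkhead letters TGTTTAC, the SMAD palindrome GTCTAGAC, the SMAD box CAGACA and the GC-rich SMAD letters GGCGCC, none of which contains another. The following 4 windows are shown. They are of the gene with the largest fall of the list (GDF15), of the gene with the largest rise (BMPR1B, an internal start), and the window with the most matches to 1 motif (ACVR1B). The last is of SMAD6, a negative regulator whose level did not pass the test, and it alone of the 67 holds GTCTAGAC. Other negative regulators also did not pass, so level alone did not single it out. All 4 lie on the plus strand and read 5′ to 3′, and capitals mark the matches.
GDF15, chr19:18385908-18386207: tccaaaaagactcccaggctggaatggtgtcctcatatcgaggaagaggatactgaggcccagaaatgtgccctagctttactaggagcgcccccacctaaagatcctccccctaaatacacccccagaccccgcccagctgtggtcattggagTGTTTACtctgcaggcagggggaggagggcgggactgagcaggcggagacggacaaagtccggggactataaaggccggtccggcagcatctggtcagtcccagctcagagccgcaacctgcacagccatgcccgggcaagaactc
BMPR1B, chr4:94995590-94995889: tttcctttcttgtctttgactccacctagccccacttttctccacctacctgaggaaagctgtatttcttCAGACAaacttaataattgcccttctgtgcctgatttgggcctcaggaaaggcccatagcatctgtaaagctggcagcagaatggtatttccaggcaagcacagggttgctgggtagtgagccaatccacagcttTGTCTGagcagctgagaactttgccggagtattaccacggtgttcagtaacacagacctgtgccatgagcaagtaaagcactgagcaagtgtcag
ACVR1B, chr12:51951449-51951748: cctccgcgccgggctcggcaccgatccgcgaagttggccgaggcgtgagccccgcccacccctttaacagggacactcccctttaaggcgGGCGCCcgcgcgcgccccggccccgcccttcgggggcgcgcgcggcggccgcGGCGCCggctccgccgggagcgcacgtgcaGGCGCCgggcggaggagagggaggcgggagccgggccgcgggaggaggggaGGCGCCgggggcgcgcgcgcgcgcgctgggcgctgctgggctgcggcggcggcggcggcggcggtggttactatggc
SMAD6, chr15:66701986-66702285: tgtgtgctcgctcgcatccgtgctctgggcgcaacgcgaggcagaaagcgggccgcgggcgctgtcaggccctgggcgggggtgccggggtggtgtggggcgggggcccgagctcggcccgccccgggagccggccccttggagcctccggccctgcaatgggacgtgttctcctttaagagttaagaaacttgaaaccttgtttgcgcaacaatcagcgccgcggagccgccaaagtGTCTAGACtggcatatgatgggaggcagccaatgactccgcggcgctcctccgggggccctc
The capitals in GDF15 are TGTTTAC, those in BMPR1B are CAGACA and its other strand TGTCTG, those in ACVR1B are 4 copies of GGCGCC, and those in SMAD6 are GTCTAGAC. TGTTTAC was in 1 of the 67 windows and in 3.42% of 35116 promoter windows of all genes, and GTCTAGAC was in 1 of 67 and in 0.202%. CAGACA was in 15 of 67 windows (22.4%) against 16.9% of all windows, and GGCGCC in 17 of 67 (25.4%) against 19.2%. The GDF15 window also lies inside the gene span given below and not at its first base. BMPR1B has 3 windows, of which the one shown was picked because it alone holds a match. The window at its annotated gene start (chr4:94757705-94758004) and the third hold none. A match describes letters in a window and is not evidence of binding.

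To ask how the pathway genes differed between groups, the quasi-likelihood test of edgeR was run on all 16417 genes that passed the filter, with Benjamini-Hochberg adjustment and a threshold of 0.05. Of the 38 tested pathway genes 16 (42.1%) passed, against 48.4% of all tested genes, so the list as a whole was not called more often than the transcriptome. Only 3 (7.89%) were higher in shFOXK2, against 25.7% of all tested genes, and 13 (34.2%) were lower, against 22.7%. The split depended on the libraries and the filter: without shCtrl replicate 1 it was 9 higher and 12 lower, and with at least 10 counts required in every library it was 1 higher and 13 lower. The groups did not overlap in CPM for 26 of the 38 genes (68.4%), against 75.4% of all tested genes. The median log2 fold change of the list was −0.29, beside 0.04 over all tested genes, with 10 genes above 0 and 28 below. The pathway genes are all protein-coding, whereas the tested genes also include genes not matched as protein-coding. Over protein-coding genes alone the medians were −0.30, −0.38, −0.13 and 0.72 in the bins of A content given below. The shares called were not taken over protein-coding genes alone. All 16 genes kept their direction in every alternative run. Of them, 12 passed the threshold in every alternative that tested them and in every fit that left out 1 library: TGFB2, GDF15, LTBP1, LTBP2, TGFBR2, ACVR1B, BMPR1B, SMAD3, SMAD7, FST, ID1 and TGFBI. BMPR1B and FST were untested with at least 10 counts in every library.

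**Figure D1:**
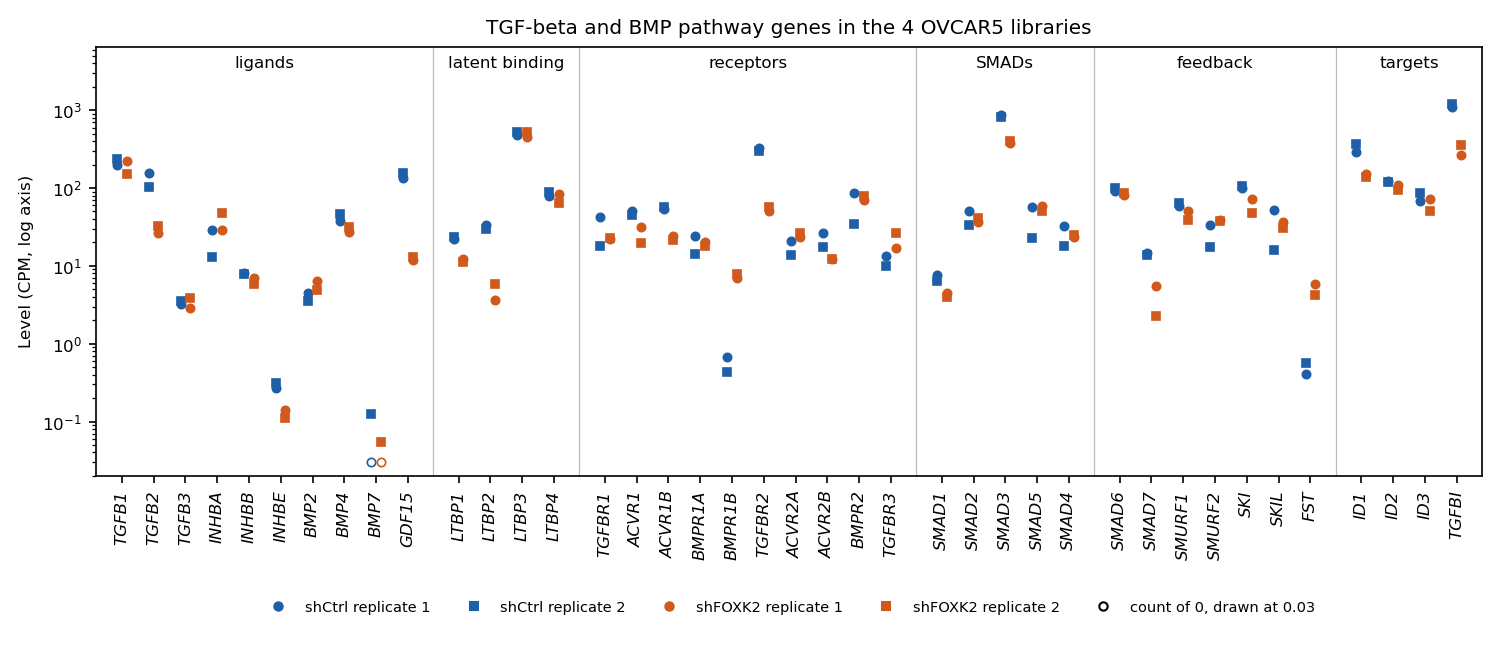
Level of each of the 40 genes in the 4 libraries, in CPM on a log axis, grouped by role; blue is shCtrl, orange is shFOXK2, circles are replicate 1 and squares replicate 2, and open circles mark a count of 0. GDF15, TGFB2, LTBP2, TGFBR2, TGFBI and SMAD7 lie far lower in both shFOXK2 libraries, BMPR1B and FST far higher, and the other genes differ less.

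By role, calls were most frequent among receptors (6 of 10, with 2 higher and 4 lower, median log2 fold change −0.21) and least frequent among signalling SMADs (1 of 5, lower, median −0.11). Among ligands 2 of 8 tested genes passed, both lower (median −0.27), and among latent binding proteins 2 of 4, both lower (median −0.57). Negative regulators had 3 of 7 past the threshold, 1 higher and 2 lower (median −0.19), and targets 2 of 4, both lower (median −0.76). Over all tested genes 48.4% passed, 25.7% as higher and 22.7% as lower. Of the receptor calls, ACVR1, ACVR2B and TGFBR3 did not hold in every run, as given below. The shares by role are counts of few genes, and no difference between roles was tested.

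**Figure D2:**
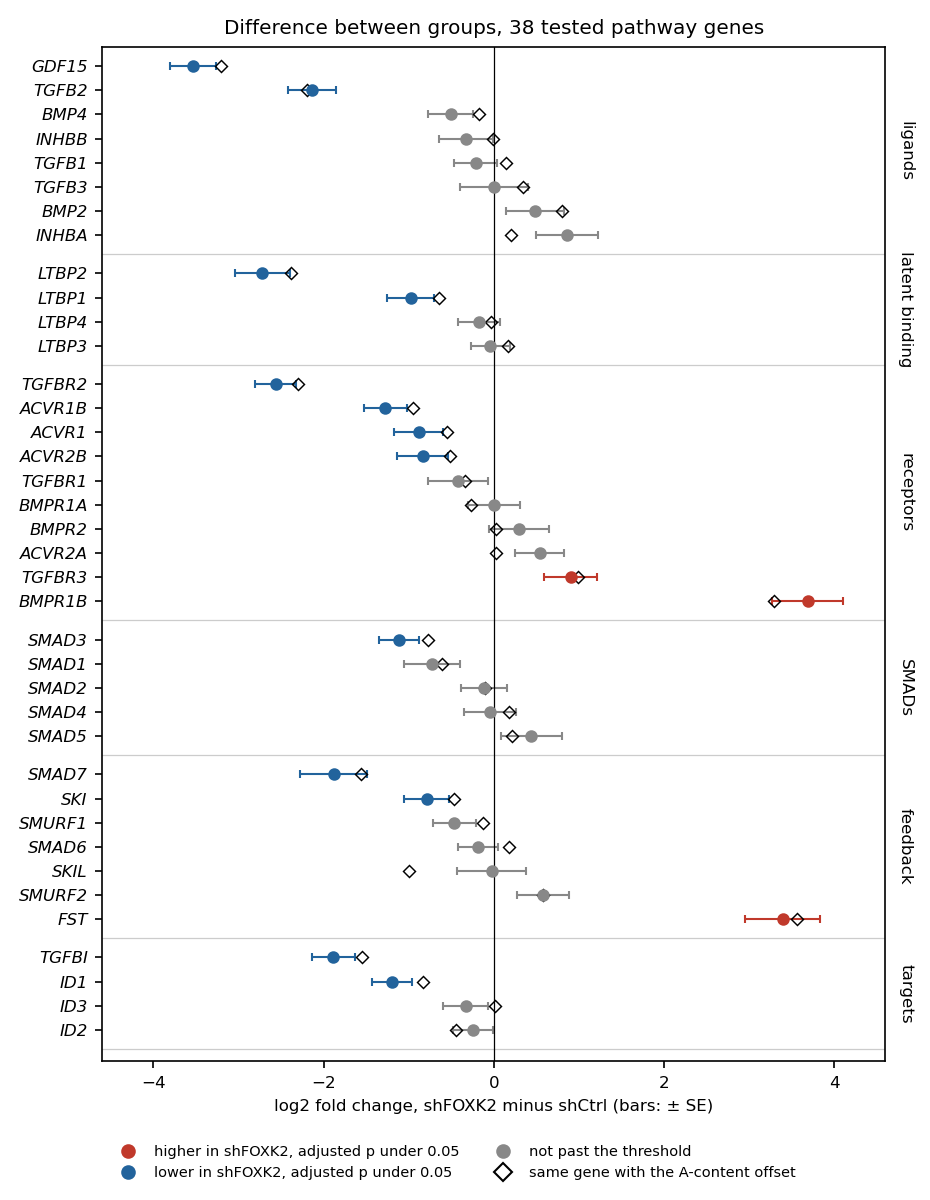
Log2 fold change of shFOXK2 against shCtrl for the 38 tested genes by role, with bars of ± 1 SE; red is higher and blue lower with an adjusted p under 0.05, grey is not past the threshold, and the open diamond is the same gene after an offset on the A content of its transcript. The filled points run from −3.54 for GDF15 to 3.69 for BMPR1B.

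The ligands were examined first. GDF15 (ENSG00000130513.7, chr19:18374731-18389176), a distant TGF-beta family member that is secreted by stressed cells, had 134 and 157 CPM in the shCtrl libraries and 11.95 and 13.13 CPM in the shFOXK2 libraries. Both shFOXK2 libraries were far below both shCtrl libraries, and replicates were close. The mean fell from 146 ± 16.3 to 12.5 ± 0.833 CPM (SD, n = 2 each), 11.6-fold lower, or −3.54 on the log2 scale (SE 0.269, adjusted p = 1.23e-06 by edgeR). GDF15 signals through GFRAL, a receptor outside the SMAD-coupled family.

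TGFB2 (ENSG00000092969.12, chr1:218345336-218444619), 1 of the 3 TGF-beta isoforms, had 155 and 103 CPM in shCtrl and 26.4 and 32.5 CPM in shFOXK2. The shCtrl libraries differed from each other, but the groups were well apart. The difference was −2.13 on the log2 scale (SE 0.28, adjusted p = 6.12e-05 by edgeR), 4.39-fold lower. Exons of TGFB2 overlap the antisense gene TGFB2-AS1 and the transcript TGFB2-OT1. The annotation and strand setting of the counting were not stated, so it is not known whether reads in the shared bases were dropped or counted for TGFB2. The other isoforms did not pass the test. TGFB1, the isoform made by most epithelial cells and leukocytes, had 196 and 239 CPM in shCtrl and 224 and 152 CPM in shFOXK2 (log2 fold change −0.21, adjusted p = 0.517 by edgeR). TGFB3 had 2.88 to 3.90 CPM over the 4 libraries. Per kilobase of transcript (RPKM, reads per kilobase, scaled as CPM), TGFB1 made up 72.0% and 82.2% of the 3 isoforms in shCtrl and 93.8% and 89.1% in shFOXK2, and TGFB2 made up 27.0% and 16.8% in shCtrl and 5.24% and 9.02% in shFOXK2. The groups did not overlap in either share. These shares and the ratios below were chosen after the values of their genes were seen and carry no test.

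Activin and BMP ligands showed smaller differences. INHBA, the subunit of activin A, had 28.9 and 13.1 CPM in shCtrl and 29.2 and 47.5 CPM in shFOXK2. The highest shCtrl library and the lowest shFOXK2 library were almost equal. The log2 fold change of 0.86 (SE 0.36) had an adjusted p of 0.0629 by edgeR. Over the alternatives that kept all libraries it ran from 0.19 to 0.93. INHBA passed in 4 of those 11: DESeq2 size factors, no filter, and the replicate block as numbered or crossed. INHBB, the subunit of activin B, had a log2 fold change of −0.33 (adjusted p = 0.413 by edgeR). BMP4, a morphogen of ventral and epithelial tissues, had 38.2 and 45.9 CPM in shCtrl and 27.1 and 32.0 CPM in shFOXK2 (log2 fold change −0.51, adjusted p = 0.121 by edgeR). BMP2, its close relative in bone and heart development, had 4.48 and 3.49 CPM in shCtrl and 6.40 and 4.83 CPM in shFOXK2 (log2 fold change 0.48, adjusted p = 0.265 by edgeR). For BMP4 and BMP2 the groups did not overlap, in opposite directions, but neither passed. INHBE, an activin subunit made mainly in liver, was at 6 and 5 counts against 2 and 2, and BMP7, a kidney and eye morphogen, at 0 and 2 against 0 and 1 (shCtrl first). Neither passed the filter. Tested with no filter, INHBE had a log2 fold change of −1.27 (adjusted p = 0.417) and BMP7 one of −0.76 (adjusted p = 0.834) by edgeR, so no difference was detectable at this depth.

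Latent TGF-beta binding proteins tether the inactive ligand complex to the matrix. LTBP2 (ENSG00000119681.12, chr14:74498183-74612378), a matrix member that is not known to bind latent TGF-beta, had 33.4 and 29.5 CPM in shCtrl and 3.66 and 5.82 CPM in shFOXK2. Its groups were far apart, and the log2 fold change was −2.72 (SE 0.321, adjusted p = 3e-05 by edgeR), 6.63-fold lower. LTBP1 (ENSG00000049323.16, chr2:32946953-33399509), which binds latent TGF-beta covalently, had 21.9 and 23.8 CPM in shCtrl and 12.1 and 11.2 CPM in shFOXK2. It fell by 0.97 on the log2 scale (SE 0.277, adjusted p = 0.0105 by edgeR). Exons of both genes overlap unnamed genes on the opposite strand. LTBP3 and LTBP4 did not pass, with log2 fold changes of −0.04 and −0.17 and overlapping groups. Per kilobase LTBP3 was the most abundant of the family in every library, with 81.2% and 81.4% of summed RPKM in shCtrl and 82.9% and 87.8% in shFOXK2, so the 2 genes that fell were the minor part of the family.

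Among receptors, TGFBR2 (ENSG00000163513.19, chr3:30606601-30694142), the type II kinase that binds TGF-beta directly, fell the most. It had 331 and 297 CPM in shCtrl and 50.1 and 56.4 CPM in shFOXK2. Replicates were close and the groups were far apart, with a mean of 314 ± 24.0 CPM against 53.2 ± 4.41 CPM (SD, n = 2 each). The log2 fold change was −2.56 (SE 0.242, adjusted p = 5.79e-06 by edgeR), 5.90-fold lower. TGFBR1, the type I kinase that pairs with it, had 42.4 and 17.8 CPM in shCtrl and 21.9 and 23.1 CPM in shFOXK2. Both shFOXK2 libraries lay between the shCtrl libraries, which differed 2.37-fold (log2 fold change −0.42, adjusted p = 0.342 by edgeR, but past the threshold with the GC offset described below). The RPKM ratio of TGFBR2 to TGFBR1 was 11.2 and 23.9 in shCtrl and 3.28 and 3.49 in shFOXK2. TGFBR3, betaglycan, the co-receptor that presents TGF-beta2 to the type II receptor and also binds inhibin, rose from 13.4 and 9.84 CPM to 16.9 and 26.5 CPM (log2 fold change 0.90, SE 0.315, adjusted p = 0.0298 by edgeR). Its adjusted p reached 0.289 when 1 library was left out, and it did not pass without shCtrl replicate 2 or without shFOXK2 replicate 2.

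The BMP type I receptor BMPR1B (ENSG00000138696.11, chr4:94757955-95158448), known from cartilage and ovarian follicles, had the largest rise. Its counts were 15 and 7 in shCtrl and 98 and 143 in shFOXK2, or 0.672 and 0.436 CPM against 6.89 and 7.86 CPM. The groups were far apart but the shCtrl level was within a few times the limit of 3 counts, and the fold is correspondingly imprecise. The log2 fold change was 3.69 (SE 0.416, adjusted p = 2.14e-05 by edgeR), 13.3-fold higher, and the log2 fold change with the GC offset was 3.09. BMPR1A, the widely expressed BMP type I receptor, had 24.2 and 14.2 CPM in shCtrl and 20.5 and 18.1 CPM in shFOXK2, with overlapping groups and a log2 fold change of 0.00. The RPKM ratio of BMPR1A to BMPR1B was 31.4 and 28.3 in shCtrl and 2.59 and 2.01 in shFOXK2, and BMPR1B made up 0.322% and 0.251% of the summed RPKM of type I receptors in shCtrl and 5.43% and 7.602% in shFOXK2. BMPR2, the BMP type II receptor, had 87.5 and 34.2 CPM in shCtrl and 70.1 and 79.3 CPM in shFOXK2. Both shFOXK2 libraries again lay between shCtrl libraries that differed 2.55-fold (adjusted p = 0.513 by edgeR).

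Activin receptors moved in part. ACVR1B (ENSG00000135503.13, chr12:51951699-51997078), the type I receptor of activin and nodal, had 54.1 and 56.6 CPM in shCtrl and 24.0 and 21.7 CPM in shFOXK2, with close replicates. It fell by 1.28 on the log2 scale (SE 0.254, adjusted p = 0.00114 by edgeR). ACVR1 (chr2:157736251-157876330), a type I receptor that signals to BMP SMADs, had 50.2 and 45.2 CPM in shCtrl and 32.1 and 19.8 CPM in shFOXK2. Its groups did not overlap but the shFOXK2 libraries differed from each other (log2 fold change −0.88, SE 0.286, adjusted p = 0.0209 by edgeR), and without shFOXK2 replicate 2 the adjusted p was 0.212. ACVR2B (chr3:38453890-38493142), a type II receptor, had 26.1 and 17.4 CPM in shCtrl and 12.3 and 12.1 CPM in shFOXK2. Its log2 fold change of −0.83 (SE 0.297) had an adjusted p of 0.0327 by edgeR and 0.130 with the A-content offset, and it did not pass in 3 of the 4 fits that left out 1 library (without shCtrl replicate 1, shFOXK2 replicate 1 or shFOXK2 replicate 2). ACVR2A, the other activin type II receptor, had 20.8 and 13.8 CPM in shCtrl and 23.8 and 26.4 CPM in shFOXK2, with a log2 fold change of 0.54 that did not pass (adjusted p = 0.142 by edgeR), and its exons overlap those of ORC4 on the opposite strand.

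Compared per kilobase, the type II receptors summed to 86.6 and 72.6 RPKM in shCtrl and 22.5 and 25.1 RPKM in shFOXK2. TGFBR2 was 84.5% and 90.4% of that sum in shCtrl and 49.2% and 49.5% in shFOXK2. ACVR2A made up 4.61% and 3.64% of the sum in shCtrl and 20.3% and 20.2% in shFOXK2, and BMPR2 8.37% and 3.90% in shCtrl and 25.8% and 26.2% in shFOXK2. The sum was lower in shFOXK2, and the levels of ACVR2A and BMPR2 themselves did not pass the test. Type I receptors summed to 37.4 and 31.1 RPKM in shCtrl and 22.7 and 18.5 RPKM in shFOXK2, with ACVR1 the most abundant of them in every library.

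**Figure D3:**
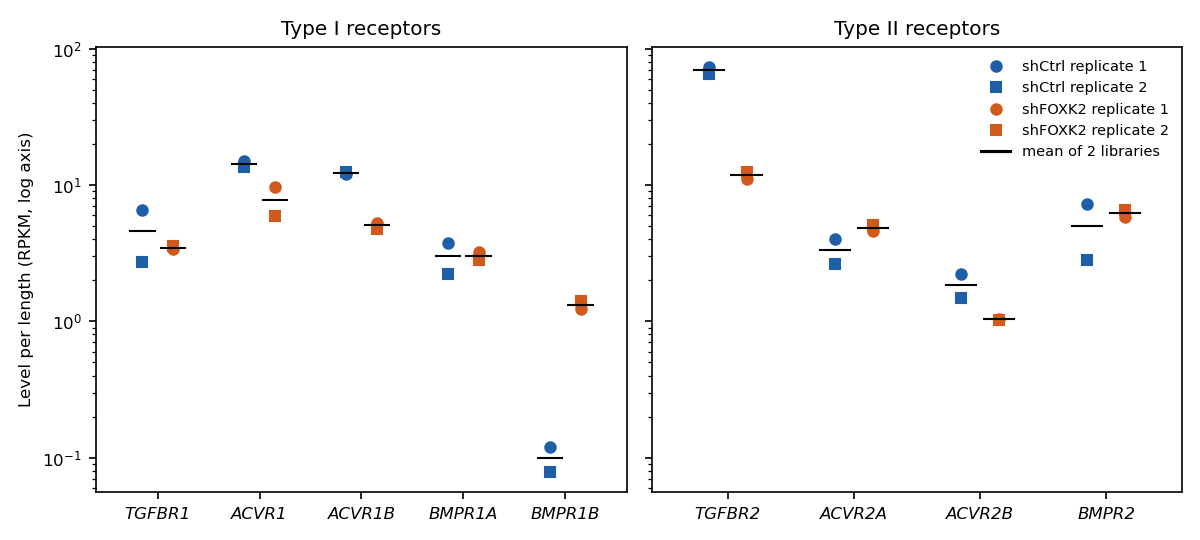
RPKM (log axis) of the 5 type I and 4 type II receptors in each library; circles are replicate 1, squares replicate 2, blue shCtrl, orange shFOXK2, and the bars are means of 2 libraries. TGFBR2 stands above all other receptors in shCtrl and close to 12 RPKM in shFOXK2, and BMPR1B is lowest in every shCtrl library.

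Of the signalling SMADs, SMAD3 (ENSG00000166949.17, chr15:67063763-67195173), which binds DNA directly for TGF-beta and activin, was the one that passed. It had 860 and 828 CPM in shCtrl and 375 and 404 CPM in shFOXK2. Replicates were close, the groups were apart, and the log2 fold change was −1.11 (SE 0.231, adjusted p = 0.00147 by edgeR). SMAD2, its partner, had 51.1 and 33.3 CPM in shCtrl and 37.0 and 41.1 CPM in shFOXK2, with overlapping groups (log2 fold change −0.11). SMAD4, the common partner, had means of 25.1 ± 10.1 CPM in shCtrl and 24.4 ± 0.873 CPM in shFOXK2 (SD, n = 2 each), with both shFOXK2 libraries between the shCtrl libraries. The RPKM ratio of SMAD3 to SMAD4 was 36.2 and 62.6 in shCtrl and 21.4 and 21.9 in shFOXK2. SMAD2 and SMAD1 passed as lower with the GC offset described below. With all 4 libraries and no offset the BMP SMADs did not pass: SMAD1 went from 169 and 103 counts in the shCtrl libraries to 64 and 72 in the shFOXK2 libraries (log2 fold change −0.73, adjusted p = 0.0823 by edgeR), and SMAD5 had 57.7 and 22.7 CPM in shCtrl and 59.3 and 50.3 CPM in shFOXK2 (log2 fold change 0.44, adjusted p = 0.322 by edgeR). SMAD1 exons overlap the antisense gene SMAD1-AS1.

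Negative regulators differed among themselves. SMAD7 (ENSG00000101665.10, chr18:48919853-48950965), the inhibitory SMAD that blocks TGF-beta type I receptors, had 14.48 and 13.95 CPM in shCtrl and 5.55 and 2.25 CPM in shFOXK2. The groups were apart although the shFOXK2 libraries were not close, and the log2 fold change was −1.88 (SE 0.395, adjusted p = 0.00163 by edgeR), or −2.68 without shFOXK2 replicate 1. SMAD6, the inhibitory SMAD with a preference for BMP signalling, had 90.9 and 100.4 CPM in shCtrl and 80.4 and 87.5 CPM in shFOXK2, with groups that did not overlap and a log2 fold change of −0.19 that did not pass (adjusted p = 0.535 by edgeR). The RPKM ratio of SMAD6 to SMAD7 was 5.48 and 6.28 in shCtrl and 12.6 and 33.9 in shFOXK2. FST (ENSG00000134363.12, chr5:53480626-53487134), follistatin, which binds and neutralizes activin, gave 9 and 9 counts in the shCtrl libraries against 83 and 78 in the shFOXK2 libraries. In CPM this was 0.403 and 0.561 against 5.83 and 4.28, or 3.39 higher on the log2 scale (SE 0.442, adjusted p = 5.85e-05 by edgeR), 10.5-fold higher from a level near the limit of counting. The RPKM ratio of INHBA to FST was 27.3 and 8.91 in shCtrl and 1.90 and 4.21 in shFOXK2, with groups that did not overlap.

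SKI and SKIL are co-repressors that hold SMAD complexes inactive. SKI had 101 and 107 CPM in shCtrl and 73.3 and 47.2 CPM in shFOXK2 (log2 fold change −0.79, SE 0.266, adjusted p = 0.0259 by edgeR), and it did not pass without shFOXK2 replicate 2 (adjusted p = 0.231). SKIL had 52.7 and 16.1 CPM in shCtrl and 37.2 and 30.5 CPM in shFOXK2. Its shCtrl libraries differed 3.26-fold, more than those of any other of the 38 tested genes, and enclosed both shFOXK2 libraries (log2 fold change −0.03, adjusted p = 0.966 by edgeR). SMURF1 and SMURF2, ubiquitin ligases that degrade SMADs and receptors, had log2 fold changes of −0.46 (adjusted p = 0.149) and 0.58 (adjusted p = 0.136) by edgeR. For both the groups did not overlap, in opposite directions, and neither passed.

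Among target genes, TGFBI (ENSG00000120708.17, chr5:136028988-136063818), a secreted matrix protein named for its induction by TGF-beta, had 1088 and 1219 CPM in shCtrl and 267 and 358 CPM in shFOXK2. The groups were far apart, and the log2 fold change was −1.88 (SE 0.252, adjusted p = 7.11e-05 by edgeR), 3.69-fold lower. ID1 (ENSG00000125968.9, chr20:31605283-31606515), an inhibitor of helix-loop-helix factors and a direct BMP target, had 295 and 371 CPM in shCtrl and 151 and 139 CPM in shFOXK2, and fell by 1.20 on the log2 scale (SE 0.236, adjusted p = 0.00105 by edgeR). Its relatives did not pass. ID2 had a log2 fold change of −0.25 (adjusted p = 0.402 by edgeR) with groups that did not overlap, and ID3 had −0.33 (adjusted p = 0.327 by edgeR) with overlapping groups. Together the 3 genes summed to 467 and 560 RPKM in shCtrl and 315 and 267 RPKM in shFOXK2, and ID1 made up 64.3% and 67.4% of the sum in shCtrl and 48.9% and 52.9% in shFOXK2.

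The base composition of the transcripts moved with these values, both between groups and between replicates. Over all protein-coding genes tested, the median log2 fold change was −0.30 where A made up under 20% of the transcript, −0.38 from 20 to 25%, −0.13 from 25 to 30% and 0.72 at 30% or more. The pathway genes had medians of −0.79 (7 genes), −0.49 (12), −0.18 (14) and 0.54 (5) in the same bins. All 9 calls below 25% A were lower, whereas the 3 higher calls (FST, TGFBR3 and BMPR1B) and 4 further lower calls lay at or above 25%. Between the shCtrl replicates the median difference of the pathway genes, replicate 1 minus replicate 2, was −0.16, −0.09, 0.58 and 1.13 on the log2 scale in these bins, and over all protein-coding genes −0.26, −0.20, 0.10 and 0.56. Between the shFOXK2 replicates it ran the other way, at 0.39, 0.13, −0.03 and −0.18 for the pathway genes. Over all protein-coding genes the shFOXK2 difference was 0.20 in the lowest bin and −0.13 in the highest. The genes with the widest shCtrl gaps were SKIL, BMPR2, SMAD5, TGFBR1 and INHBA.

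An offset that smoothed each library on A content shifted the median of all genes by 0.24, and 14 pathway genes then passed, 3 higher and 11 lower, of which 13 were among the 16. Under it TGFBR2 and GDF15 remained lower and BMPR1B and FST higher, ACVR1 (adjusted p = 0.085), ACVR2B and SKI (adjusted p = 0.0755) no longer passed, and SKIL passed with a log2 fold change of −1.002 (adjusted p = 0.0377, all by edgeR). INHBA, the most A-rich gene of the list after SKIL, had an adjusted p of 0.557 there. The same kind of offset on GC content shifted the median of all genes by 0.20, and 18 pathway genes passed, 3 higher and 15 lower, of which 14 were among the 16. ACVR1 (adjusted p = 0.0602) and SKI (adjusted p = 0.0651) were again lost. TGFBR1 (log2 fold change −0.94, adjusted p = 0.0116), SMAD1 (−0.79, adjusted p = 0.036), SMAD2 (−0.50, adjusted p = 0.0357) and SKIL (−1.09, adjusted p = 0.0231) passed as lower with the GC offset by edgeR. The part of base composition in the differences was otherwise not tested.

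**Figure D4:**
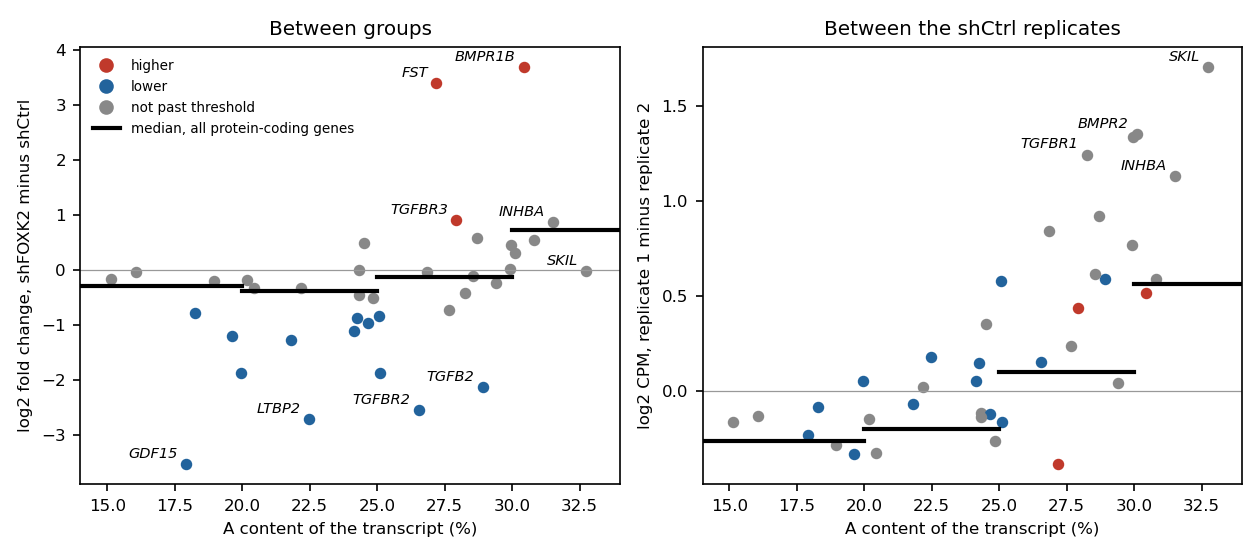
A content of the transcript (percent) against the log2 fold change between groups (left) and against the log2 CPM difference of shCtrl replicate 1 minus replicate 2 (right) for the 38 tested genes; red is higher, blue lower, grey not past the threshold, and black bars are medians of all tested protein-coding genes in 4 bins. SKIL, BMPR2, TGFBR1 and INHBA differ by more than 1 between the shCtrl replicates, and LTBP2, TGFBR2, TGFB2 and GDF15 lie below the black bars on the left.

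Other genes of the pathway, a list of 63 that does not overlap the 40, were then read from the same fit. Of 46 that could be tested 24 (52.2%) passed, beside 48.4% of all tested genes, 7 (15.2%) higher against 25.7%, and 17 (37.0%) lower against 22.7%. The groups did not overlap for 35 (76.1%), near the 75.4% of all tested genes. The median log2 fold change was −0.45. The tested genes set beside this list again include genes not matched as protein-coding. Ligands had 5 of 8 past the threshold (2 higher, 3 lower), receptors and co-receptors 3 of 5 (1 higher, 2 lower), extracellular antagonists 4 of 8 (1 higher, 3 lower), latency and activation genes 2 of 3 (both lower), intracellular regulators 6 of 16 (3 higher, 3 lower) and targets 4 of 6 (all lower). The 17 that were not tested included NODAL, LEFTY1, LEFTY2, GREM1 and ID4, each with 7 counts or fewer in every library.

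The genes named from this list are 3 of the 4 largest falls and the 4 largest rises among those that averaged at least 1 log2 CPM. FN1, fibronectin, a matrix protein induced by TGF-beta, had 921 and 880 CPM in shCtrl and 33.7 and 21.4 CPM in shFOXK2 (log2 fold change −5.03, SE 0.305, adjusted p = 3.16e-07 by edgeR). NEO1, a co-receptor for BMP and repulsive guidance molecules, fell by 1.91 on the log2 scale (adjusted p = 8.27e-05 by edgeR), and CHRD, chordin, a BMP antagonist, fell by 3.16 (adjusted p = 0.000156 by edgeR) from 93 and 83 counts to 4 and 13. The value for CHRD was −4.05 without shFOXK2 replicate 2.

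Of the rises, AMH, anti-Müllerian hormone, a ligand of the family known from Sertoli and granulosa cells, gave 209 and 190 counts in the shCtrl libraries against 903 and 826 in the shFOXK2 libraries (log2 fold change 2.36, SE 0.291, adjusted p = 3.99e-05 by edgeR), while its own type II receptor AMHR2 had between 0 and 7 counts. TRIM33, a ubiquitin ligase that acts on SMAD4, had 39.3 and 17.8 CPM in shCtrl and 103 and 129 CPM in shFOXK2 (log2 fold change 2.02, adjusted p = 0.000351 by edgeR). Its log2 fold change was 2.67 without shCtrl replicate 1 and 1.49 without shCtrl replicate 2. With the GC offset it was 1.53 and with the A-content offset 1.65. NOG, noggin, a BMP antagonist, rose by 1.93 on the log2 scale (adjusted p = 0.00162 by edgeR) from 44 and 57 counts to 190 and 136. Chordin and noggin, both BMP antagonists, moved in opposite directions. USP15, a deubiquitinase that acts on TGF-beta receptors and SMADs, rose by 1.47 (adjusted p = 0.000758 by edgeR). With the GC offset its log2 fold change was 0.56 and no longer passed (adjusted p = 0.0516 by edgeR), and with the A-content offset it was 0.75.

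**Figure D5:**
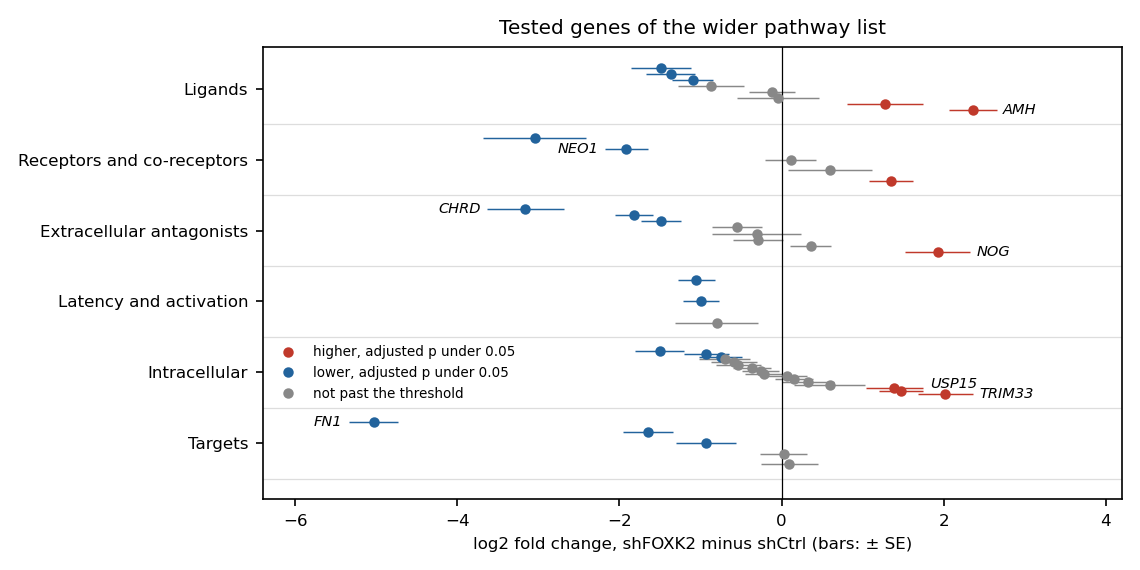
Log2 fold change of shFOXK2 against shCtrl for the tested genes of the wider pathway list by role, with 1 tested gene not drawn, with bars of ± 1 SE; red is higher and blue lower with an adjusted p under 0.05, grey is not past the threshold, and the named genes are labelled. FN1 at −5.03 and AMH at 2.36 are the extremes.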

How the data were processed

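RNA from 4 OVCAR5 libraries was read from the tables the authors deposited, 1 per library, which hold raw counts per gene symbol without normalization. Per the labels and the study's methods, poly(A) RNA was made into libraries with a NEBNext kit, sequenced as single-end reads, aligned to hg38 with STAR 2.5.2 and counted with HTSeq. The annotation and the strand setting of the counting are not given in the sources used here. Reads in overlapping exons may therefore have been dropped or counted for one of the genes. Reads with several equally good places are usually dropped by HTSeq, which lowers counts of near-identical genes.

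Sample titles gave the groups and replicate numbers. In R 4.3.3, edgeR 4.0.16 filtered genes (filterByExpr), applied TMM scaling and ran its 2-sided quasi-likelihood F test. P-values were adjusted after Benjamini and Hochberg over 16417 genes, with a threshold of 0.05. The SE was obtained from F as the size of the log2 fold change over √F. CPM use TMM factors and RPKM also the length of the Ensembl canonical transcript in GENCODE 44, from which positions and base composition were taken (36906 of 56655 symbols matched). Limits given in counts cover counting error only, since PCR copies are not independent molecules.

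The 40 genes, their roles, the wider list and the markers were chosen with earlier results of these data known. Named genes are the 40, FOXK2, and the 4 largest rises and 4 largest falls of the wider list with an adjusted p under 0.05, an average log2 CPM no lower than 1 and groups that do not overlap, of which 1 fall is not reported here. Other genes named, such as AMHR2, were chosen after their values were seen. Alternatives were DESeq2 1.42.0 size factors and its Wald test, library size alone, no filter, at least 10 counts in every library, the replicate number as a block, lowess offsets (span 0.2) on GC or A content with and without the block, and leaving out each library. A crossed block was added after seeing the data. The test was tried on simulated counts first.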

Additional observations from a re-analysis of the deposited data

How the results depend on the processing

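The count of pathway genes past the threshold ran from 14 to 19 over the alternatives that kept all libraries and from 12 to 21 when 1 library was left out, and the 13 lower calls never moved by over 1.5 times. The count of higher calls (3) was 1 with at least 10 counts required in every library and between 2 and 9 with a library left out, 9 being without shCtrl replicate 1. Same-numbered libraries did not deviate together (residual correlation −0.13), so the replicate number shows no pairing; with it as a block 16 genes passed (15 of the 16), with ACVR2B lost (adjusted p = 0.059) and INHBA gained (0.0254) by edgeR, and with crossed numbers 17 passed. FOXK2 ranged from −0.46 (no filter) to −0.03 (A offset) and did not pass in any alternative that kept all libraries. With the A and GC offsets, alone and with the block, its values lay between −0.07 and −0.03. A fit that leaves out a library assumes that the lone library of its group varies like the other group.

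Reversals came only from genes that had not passed the test. With library size alone TGFB3 was 0.041 and LTBP3 0.0015. With the 10-count filter TGFB3 was 0.04996, LTBP3 0.0081, SMAD4 0.0057 and SKIL 0.023. With DESeq2 size factors, its Wald test and no filter BMPR1A was −0.0124, −0.0119 and −0.10. With the block SMAD4 was 0.017 and SKIL 0.20, and with the crossed block 0.013 and 0.19. With the GC offset, alone and with the block, TGFB3 was 0.34 and 0.31, BMPR1A −0.48 and −0.47, ACVR2A −0.31 and −0.31, BMPR2 −0.18 and −0.14, SMAD5 −0.30 and −0.27, SMAD6 0.17 and 0.17, and alone LTBP3 was 0.0073. With the A offset, alone and with the block, TGFB1 was 0.14 and 0.13, TGFB3 0.34 and 0.32, LTBP3 0.17 and 0.16, BMPR1A −0.26 and −0.26, SMAD4 0.18 and 0.23, SMAD6 0.17 and 0.17, ID3 0.017 and 0.0073, and with the block INHBB was 0.00067. The GC offset, the A offset and no filter shifted the median of all genes by 0.20, 0.24 and −0.10, and the cause of each reversal was not tested.

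With 1 library left out in turn, log2 fold changes that changed sign ran from −0.54 to 0.0102 for TGFB1, −0.27 to 0.17 for TGFB3, −0.19 to 0.0437 for LTBP3, −0.98 to 0.30 for TGFBR1, −0.40 to 0.41 for BMPR1A, −0.30 to 1.09 for BMPR2, −0.46 to 0.19 for SMAD2, −0.15 to 1.23 for SMAD5, −0.48 to 0.41 for SMAD4 and −0.71 to 1.04 for SKIL.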
